A study of Rattus norvegicus with 6 samples.

Results

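Transcripts of the caveolins, the cavins and the proteins that shape or hold the necks of caveolae were followed in 2 kinds of mural cell of the rat brain cortex, the vascular smooth muscle cells of arterioles (VSMCs) and the pericytes of mid-capillaries (mcPCs). The list holds 10 genes chosen by name, namely the caveolins Cav1, Cav2 and Cav3, the cavins Ptrf (cavin-1), Sdpr (cavin-2), Prkcdbp (cavin-3) and Murc (cavin-4), and the accessory genes Ehd2, Pacsin2 and Pacsin3. Of these, 9 have a row among the 14607 genes of the deposited table, and Cav3 has none. The table keeps genes with a read in each sample, so whether Cav3 had no read in some sample or was missing from the transcript set cannot be told apart.

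The study used male Sprague-Dawley rats, 4 to 5 weeks old, and sequenced polyA+ RNA of 3 VSMC samples and 3 mcPC samples from 3 isolations, each of which pooled the cortices of several rats. VSMCs came from arterioles kept back by a mesh and digested further with Liberase TM and trypsin. Endothelial and microglial cells were captured from these, and VSMCs were then positively sorted with a lectin. The filtrate did not get that further digestion, so effects of dissociation and of cell type cannot be told apart. The mcPCs were what remained of the filtrate once endothelial, microglial, astrocytic and oligodendrocytic cells had been captured, a negative sort that leaves other unlabelled cells in. The values are the authors' means of each cell type, and no value per sample was at hand, so neither an SD nor a test between the cell types can be given. The comparison asks how the mural cells of arterioles and of mid-capillaries differ, here for 1 membrane structure.

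Caveolae are small flask-shaped pits of the plasma membrane that are abundant in smooth muscle, endothelium and fat. Caveolin-1 or, in striated muscle, caveolin-3 inserts into the inner leaflet as oligomers, and cavin-1 joins them to form the coat. Caveolin-2 depends on caveolin-1 to reach the surface. Cavin-2 and cavin-3 bind cavin-1, and cavin-4 is the muscle member of that family. EHD2, an ATPase, encircles the neck and limits detachment, while the F-BAR proteins PACSIN2 and PACSIN3 bend the membrane there. In arteries caveolae gather receptors and channels and act as a reserve of membrane under stretch.

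Of the 9 listed genes, 7 were at least 2-fold lower in mcPCs than in VSMCs on the authors' mean normalized counts, and Sdpr and Murc were at least 2-fold higher. Among all listed genes, 13.9% were past 2-fold towards VSMCs and 22.0% past 2-fold towards mcPCs, that is 2034 and 3210 genes. On this scale the 77.8% of caveolae genes on the VSMC side stands well above the share of all genes there, whereas the 22.2% on the mcPC side is near the share of all genes. The list was chosen with earlier results of these data known, so this contrast is a description and not a test. On the deposited abundances (TPM, explained below), which are not normalized between the cell types, 7 and 0 of the 9 genes were past 2-fold towards VSMCs and mcPCs, against 74.8% and 8.17% of all genes, so the count towards VSMCs is near the background there. The median log2 ratio, mcPC over VSMC, was -3.09 for the caveolae genes and 0.01 for all genes. Every ratio below is of this kind unless another scale is named, with a negative value for a gene higher in VSMCs. Bounds in brackets are exact 95% intervals that cover counting error only and say nothing of the spread between isolations.

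Promoters are shown first for Cav1, Cav2 and Ptrf, the core of the coat, and for Sdpr, the better counted of the cavins higher in mcPCs, so that their sequences can be set beside the levels. They run from 250 bases before to 50 bases after the RefSeq start site on GRCr8, a later assembly than the Rnor_6.0 transcripts behind the counts, and are written along the gene. Cav2 and Cav1 are adjacent coding genes on chromosome 4 of that assembly, followed by Met. Capitals mark matches to any of 4 motifs on either strand. The GC box was searched as GGGCGG. The letters of the TATA box were TATAAA. For the MCAT element they were CATTCC, and the CCAAT box was searched by the letters of its name. These motifs did not overlap in the 4 windows printed. The windows are chr4:46606288-46606587, plus strand for Cav1, chr4:46582431-46582730, plus strand for Cav2, chr10:86396334-86396633, minus strand for Ptrf and chr9:57805975-57806274, minus strand for Sdpr.
Cav1: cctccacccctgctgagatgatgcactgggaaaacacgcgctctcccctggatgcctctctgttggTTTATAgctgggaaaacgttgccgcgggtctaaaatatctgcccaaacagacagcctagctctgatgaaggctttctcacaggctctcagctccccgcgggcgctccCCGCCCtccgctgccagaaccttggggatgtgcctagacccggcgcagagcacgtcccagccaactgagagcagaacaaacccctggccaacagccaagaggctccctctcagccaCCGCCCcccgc
Cav2: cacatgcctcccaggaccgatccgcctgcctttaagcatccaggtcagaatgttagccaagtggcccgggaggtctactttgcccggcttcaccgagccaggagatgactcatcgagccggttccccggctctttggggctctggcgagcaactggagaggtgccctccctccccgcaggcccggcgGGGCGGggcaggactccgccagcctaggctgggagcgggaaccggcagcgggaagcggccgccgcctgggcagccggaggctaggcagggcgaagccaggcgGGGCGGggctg
Ptrf: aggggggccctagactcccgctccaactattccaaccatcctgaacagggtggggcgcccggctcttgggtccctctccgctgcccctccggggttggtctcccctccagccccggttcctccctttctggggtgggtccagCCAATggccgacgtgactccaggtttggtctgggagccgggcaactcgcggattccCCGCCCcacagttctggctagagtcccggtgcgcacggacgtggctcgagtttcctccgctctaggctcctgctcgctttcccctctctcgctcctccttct
Sdpr: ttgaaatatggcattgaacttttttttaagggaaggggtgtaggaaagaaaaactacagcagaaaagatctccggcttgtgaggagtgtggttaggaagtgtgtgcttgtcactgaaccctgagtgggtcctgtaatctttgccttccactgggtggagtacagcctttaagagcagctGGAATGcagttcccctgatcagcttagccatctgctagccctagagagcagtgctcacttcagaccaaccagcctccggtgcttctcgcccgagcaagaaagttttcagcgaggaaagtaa

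GC content was 61.7% in the Cav1 window, 70.3% in that of Cav2, 66.3% in that of Ptrf and 64.3% in that of Ehd2. It was lower in the windows of Pacsin2, Murc and Sdpr, with 54.0, 52.3 and 48.7%, against a median of 51.7% over 33469 rat promoters. The window of Cav3, which has no expression row, had 60.0%. A GC box stood in the windows of Cav1, Cav2, Ptrf and Ehd2 and in 33.1% of all promoters, and none stood in the windows of Sdpr, Murc, Pacsin2 or Cav3. A CCAAT box was found in Cav3, Ptrf and Ehd2 and in 37.5% of all promoters. The MCAT element occurred in Cav3 and Sdpr and in 14.2% of all promoters, and TATAAA in Cav1 and Murc and likewise in 14.2%. The CArG box bound by serum response factor, searched on both strands, was in none of the 8 windows at hand and in 1.64% of all promoters. Such matches are descriptions of letters, not binding sites. The promoters of Prkcdbp and Pacsin3 were not analysed here.

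Cav1, whose product is the structural caveolin of smooth muscle and endothelium, showed the widest difference among these genes. Its mean level in TPM, the share of a library's transcripts after correction for transcript length, was 497 in VSMCs and 2.05 in mcPCs. In normalized counts it had 33828 and 481. These means rested on 47574 reads per VSMC sample and 352 reads per mcPC sample. The log2 ratio of Cav1 was -6.14 (-6.23 to -6.05), or 70.4-fold higher in VSMCs, the 58th lowest ratio of the 14607 genes. Within VSMCs, Cav1 was more abundant than 97.8% of the listed genes, and within mcPCs than 37.2%.

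Cav2, the partner that forms mixed oligomers with caveolin-1, reached 99.6 TPM in the arteriolar cells against 1.44 TPM in mcPCs. It rested on 9286 and 242 reads per sample. Its log2 ratio of -4.32 (-4.42 to -4.21) was 19.9-fold in favour of VSMCs and less negative than that of Cav1. Cav2 ranked above 89.4% of the listed genes in VSMCs and above 30.8% in mcPCs, and both caveolins lay in the lower part of the mcPC ranking. Cav1 and Cav2 were thus closer in level in mcPCs than in VSMCs, where Cav1 stood well above Cav2.

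**Figure D1:**
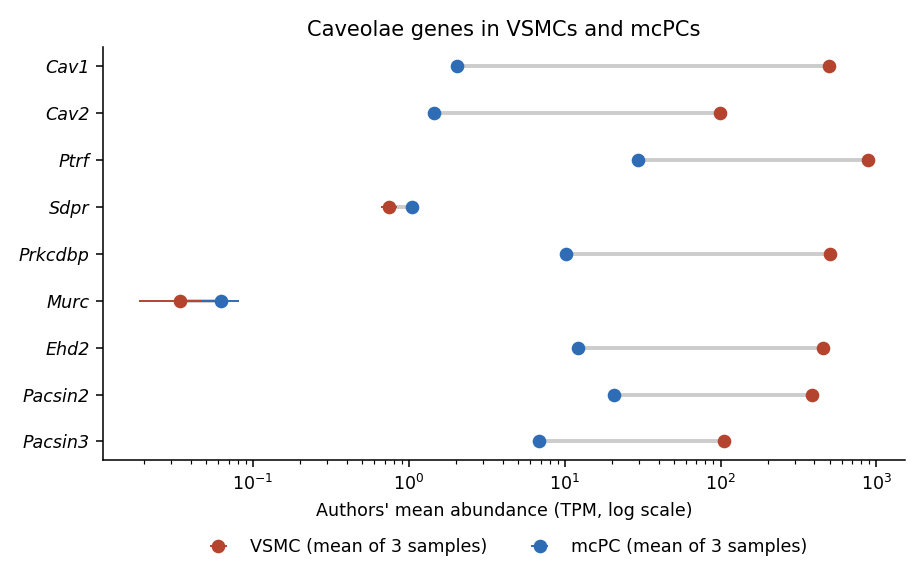
Mean abundance in TPM (log axis) of the 9 caveolae genes in VSMCs (red) and mcPCs (blue), with bars for exact 95% counting intervals, which are narrower than the points for most genes. The caveolins Cav1 and Cav2 are at 2.05 and 1.44 TPM in mcPCs, Ptrf is at 29.5 TPM, and Sdpr and Murc are low in both cell types.

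Ptrf encodes cavin-1, the cavin without which caveolae do not form. It was the most abundant of the genes in either cell type, at 888 TPM for VSMCs and 29.5 TPM for mcPCs. The counts behind these means were 107885 and 6648 reads per sample. Its log2 ratio was -3.09 (-3.11 to -3.06), or 8.49-fold higher in VSMCs. Unlike the caveolins, Ptrf kept a high rank in mcPCs, above 91.6% of the listed genes, against 98.8% in VSMCs.

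Prkcdbp, which encodes cavin-3, was at 507 TPM for VSMCs and at 10.2 TPM for mcPCs. Its log2 ratio of -3.83 (-3.89 to -3.77) lay between those of Cav2 and Ptrf. Prkcdbp ranked above 97.9% of the listed genes in VSMCs and above 76.1% in mcPCs. In VSMCs its level was 1.02 times that of Cav1, a gap too small to order these genes without a spread between isolations.

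Sdpr, which encodes cavin-2, an abundant cavin of endothelium, was low in both sorted populations, at 0.748 TPM (VSMCs) and 1.05 TPM (mcPCs). It rested on 88.6 and 224 reads per sample, estimates that are not whole numbers because Salmon shared some reads among transcripts. The log2 ratio of Sdpr was 2.23 (2.02 to 2.44), or 4.68-fold higher in mcPCs. On TPM as deposited, without normalization between the cell types, the log2 ratio of Sdpr was 0.49, within 2-fold.

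Murc, which encodes the muscle cavin-4, was close to the limit of what was counted. The 3 VSMC samples together held 14 reads (7.65 to 23.5) and the 3 mcPC samples 54 reads (40.6 to 70.5), or 0.0343 and 0.0623 TPM. Its log2 ratio of 2.72 (1.85 to 3.68) therefore had the widest interval of the list, and on TPM as deposited it was 0.86. A minimum of 0.8 TPM in VSMCs keeps 7 of the 9 genes and removes Sdpr and Murc, so no caveolae gene on the mcPC side is left. Under that minimum, which is set on the VSMC level and so removes genes low in VSMCs, 15.8% of the 12218 remaining genes lay past 2-fold towards VSMCs and 13.1% towards mcPCs.

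Many markers of cells other than mural ones were also higher in mcPCs on normalized counts, as Sdpr and Murc were. Of 21 endothelial markers, 20 had a row. Of those 20, 15 were at least 2-fold higher in mcPCs and none in VSMCs, against 22.0% and 13.9% of all genes. Their summed level was 699 TPM for VSMCs and 355 TPM for mcPCs. Most of those sums came from Esam, with 487 and 184 TPM, whose log2 ratio was 0.43 and turned negative on 3 of the 6 other scales described below. Cd34 and Cldn5 had the highest ratios, with 6.54 and 6.34. They reached 32.4 and 15.4 TPM in mcPCs, against 1.40 and 0.643 TPM in VSMCs. Flt1 and Slc2a1 had the lowest ratios, with -0.78 and -0.50. Their levels were 8.20 and 115 TPM in VSMCs and 1.41 and 23.9 TPM in mcPCs. Pecam1 had no row. No listed marker was at 0, since the table keeps genes with a read in each sample. The part of these cells in the levels of Sdpr and Murc was not tested, nor was their part in those of Cav1 and Cav2. Cav1 and Cav2 are also genes of endothelium, and in mcPCs both were below Cldn5.

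For other cells, the genes at least 2-fold higher in mcPCs were 6 of 6 microglia and macrophage markers in the table, 5 of 5 astrocyte markers, 3 of 3 neuron markers, 5 of 7 fibroblast markers and 4 of 5 oligodendrocyte markers, against 22.0% of all genes. A further 4 of 10 microglia and macrophage, 2 of 7 astrocyte and 4 of 7 neuron markers had no row. The same held for 1 of 8 fibroblast, 2 of 7 oligodendrocyte and 5 of 19 erythrocyte markers. Summed over the first 4 of these lists in turn, levels in mcPCs were 12.4, 18.1, 21.9 and 116 TPM, against 0.893, 1.04, 3.07 and 440 TPM in VSMCs, and the oligodendrocyte sums were 6.0 and 6.66 TPM. Single genes held most of some sums. In mcPCs these were Slc1a3 (12.7 TPM) for astrocytes and Tubb3 (15.7 TPM) for neurons, and in VSMCs Col3a1 (300 TPM) for fibroblasts. On TPM as deposited, 14 endothelial, 6 microglia and macrophage, 4 astrocyte, 2 neuron, 1 fibroblast and 1 oligodendrocyte marker stayed at least 2-fold higher in mcPCs, against 8.17% of all genes. All 14 erythrocyte markers in the table were on the mcPC side, and they held 54.9% of mean TPM in mcPCs and 0.728% in VSMCs. Because that share lowers the TPM of every other gene in mcPCs, TPM is used here for levels within a cell type and normalized counts for differences between them. In bulk samples, fewer cells that express a gene and less RNA of it per cell cannot be told apart.

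Markers could be set beside the labels of the means of each cell type, but not beside those of single samples. Some of these markers were also used by the study to identify the sorted cells. All 10 smooth muscle markers were at least 2-fold higher in VSMCs, with a median log2 ratio of -7.48 and a range from -8.35 to -2.48, and all 6 pericyte markers were at least 2-fold higher in mcPCs, with a median of 6.34. Among the pan-mural genes, Rgs5 had -0.06, Cspg4 -0.19 and Pdgfrb 1.17, the last at -0.66 on TPM as deposited. Of the 10 smooth muscle markers, 7 had a lower ratio than Cav1, 8 a lower ratio than Cav2 and 9 a lower ratio than Ptrf, and the ratios of Pacsin2 and Pacsin3 were above all 10. On average, a VSMC library held 62.0 M assigned reads and a mcPC library 48.0 M, where M stands for 1e6.

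Ehd2 encodes the ATPase of the caveolar neck. Its levels of 453 TPM (VSMCs) and 12.2 TPM (mcPCs) came from 33292 and 1662 reads per sample. Its log2 ratio was -3.39 (-3.43 to -3.34), or 10.4-fold higher in VSMCs, close to that of Ptrf. Ehd2 was the member nearest to Ptrf in ratio, with a level of 0.511 times that of Ptrf in VSMCs and 0.413 times in mcPCs.

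Pacsin2, whose F-BAR protein is the widely expressed member of its family, was at 385 TPM for VSMCs and at 20.8 TPM for mcPCs. The log2 ratio of Pacsin2 was -2.40 (-2.43 to -2.37), or 5.28-fold higher in VSMCs. In mcPCs it was the most abundant caveolae gene after Ptrf and ranked above 87.9% of the listed genes. Pacsin3, the form best known from muscle, reached 105 TPM (VSMCs) and 6.83 TPM (mcPCs) on 6501 and 783 reads per sample. Its log2 ratio of -2.13 (-2.19 to -2.06) was the least negative among the 7 genes higher in VSMCs. The accessory genes thus ran from -3.39 to -2.13, all less negative than the caveolins.

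Pacsin2 also differed in the transcripts that were counted. Its mean effective length, the number of positions from which a read can start averaged over the transcripts present, was 2181 bases in VSMCs and 2449 bases in mcPCs, 12.3% longer in mcPCs. That shift was larger than in 96.6% of the listed genes. For Pacsin3 the length differed by 0.224%, and for the other 7 genes it was the same in both cell types. Even the small shift of Pacsin3 was larger than in 78.3% of the listed genes, so most genes showed almost none. How many transcripts of each gene could be told apart was not analysed, so equal lengths say little about transcript use. Which Pacsin2 transcripts account for the shift was not analysed here, because the table is summed per gene. The normalization took the lengths into account, and on counts scaled to the same total, without lengths, Pacsin2 was -2.27 relative to the median of all genes.

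**Figure D2:**
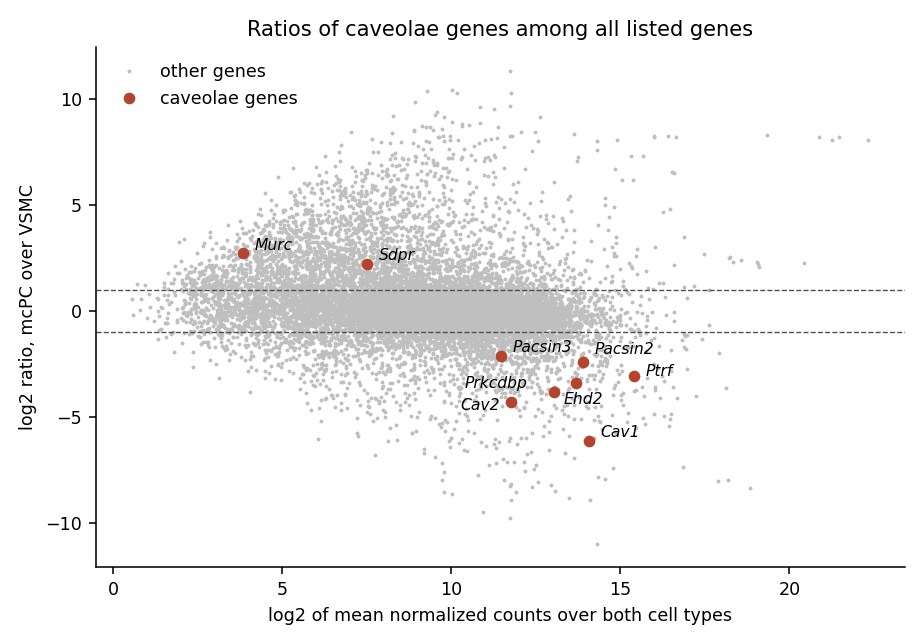
Log2 ratio of mean normalized counts, mcPC over VSMC, against log2 of the mean normalized counts over both cell types, for all 14607 genes (grey) and the 9 caveolae genes (red), with dashed lines at the 2-fold limits. The 7 genes from Cav1 at -6.14 to Pacsin3 at -2.13 lie below the lower line at high counts, and Sdpr at 2.23 and Murc at 2.72 lie above the upper line at low counts.

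The paralogs of the accessory genes act mainly in endosomal recycling and synaptic vesicle traffic. Ehd1 had a log2 ratio of -0.37, Ehd3 of -0.12 and Ehd4 of -0.76, all within 2-fold, and on TPM as deposited, where the median of all genes was -1.79, they had -2.16, -1.94 and -2.58. Pacsin1, the neuronal form, had 2.08 and was low in both cell types, at 0.633 TPM for VSMCs and 0.805 TPM for mcPCs. In mcPCs Ehd3 was the most abundant of the EHD genes, at 55.9 TPM against 12.2 TPM for Ehd2, whereas in VSMCs Ehd2 was, at 453 TPM against 215 TPM for Ehd3.

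Ratios between genes within a cell type do not depend on how the cell types were scaled to each other. The TPM of Ptrf was 1.78 times that of Cav1 in VSMCs (1.77 to 1.80) and 14.4 times in mcPCs (13.5 to 15.3), 8.06-fold more. The cavins summed were 2.34 times the caveolins summed in VSMCs and 11.7 times in mcPCs. Relative to Cav1, Ehd2 went from 0.911 to 5.94, Prkcdbp from 1.02 to 4.99, Pacsin2 from 0.775 to 10.2 and Pacsin3 from 0.211 to 3.33. Each of these 4 genes was therefore near or below the level of Cav1 in VSMCs and several times above it in mcPCs. In mcPCs these ratios rest on 2.05 TPM of Cav1. How much of the Cav1 and Cav2 RNA there came from endothelial cells or VSMCs was not tested, which also limits the shares below. The 10 smooth muscle markers above summed to 279 TPM in mcPCs, of which Myl9 was 197 TPM.

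Within the caveolins, Cav1 made up 83.3% of the summed TPM of Cav1 and Cav2 in VSMCs and 58.7% in mcPCs. Cav2 was 0.200 times Cav1 in VSMCs (0.198 to 0.203) and 0.704 times in mcPCs (0.639 to 0.774). Within the cavins, Ptrf made up 63.6% in VSMCs and 72.2% in mcPCs, Prkcdbp 36.3% and 25.0%, and Sdpr 0.0536% and 2.57%. As a share of estimated counts, which are not corrected for length, Prkcdbp had 16.9% and 10.6%. Murc stayed below 1% in both, with 0.00246% and 0.153%. Ptrf and Prkcdbp thus held nearly the whole of the cavin transcripts in either cell type.

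Over the 9 genes together, with a summed level of 2936 TPM for VSMCs and 84.2 TPM for mcPCs, the share of Cav1 was 16.9% in VSMCs and 2.44% in mcPCs. Pacsin2 took 13.1% in VSMCs and 24.7% in mcPCs. Ptrf and Ehd2 held similar shares in both, 30.2 and 35.0% for Ptrf and 15.4 and 14.5% for Ehd2.

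**Figure D3:**
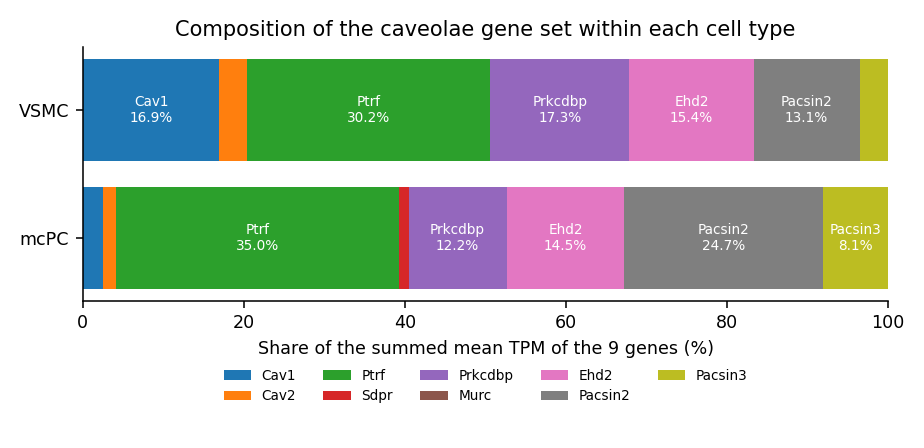
Share of each gene in the summed mean TPM of the 9 caveolae genes (%), as stacked bars that add to 100% in VSMCs and in mcPCs. The blue segment of Cav1 narrows from 16.9% to 2.44% and the grey segment of Pacsin2 widens from 13.1% to 24.7%, while Ptrf remains the widest.

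In order of level, VSMCs had Ptrf, Prkcdbp, Cav1, Ehd2, Pacsin2, Pacsin3, Cav2, Sdpr and Murc from high to low, and mcPCs had Ptrf, Pacsin2, Ehd2, Prkcdbp, Pacsin3, Cav1, Cav2, Sdpr and Murc. In VSMCs, each step from Prkcdbp to Cav1, Ehd2 and Pacsin2 was at most 1.18-fold and that from Pacsin3 to Cav2 1.05-fold, and in mcPCs the other steps were 1.19-fold to 1.71-fold, so these places are not settled without values per sample. The gaps below Pacsin2 (3.67-fold), Cav2 (133-fold) and Sdpr (21.8-fold) were wide. In mcPCs the widest gaps were below Sdpr (16.8-fold) and below Pacsin3 (3.33-fold), the latter lying between the 5 most abundant genes and Cav1, Cav2, Sdpr and Murc.

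The scale between the cell types mattered for the size of the ratios and, apart from Sdpr and Murc on TPM as deposited, for no 2-fold call. Across 6 other scales the log2 ratio of Cav1 ran from -7.92 to -6.13, that of Ptrf from -4.91 to -3.09 and that of Pacsin3 from -3.94 to -2.12. The median of all genes moved with them, to -0.29 relative to the pan-mural genes, -0.55 on counts scaled to the same total, -0.65 on TPM without erythrocyte genes and -1.79 on TPM as deposited. Taken relative to that median, Cav1 stayed between -6.16 and -6.13, Ptrf between -3.12 and -3.10 and Sdpr between 2.20 and 2.28. The TPM scales differ from one another only by a constant, as does the pan-mural scale from normalized counts. The narrow ranges relative to the median are therefore largely fixed by construction. Of all genes past 2-fold, 61.2% were higher in mcPCs on normalized counts, 47.3% relative to the pan-mural genes, 34.9% on counts scaled to the same total, 30.4% on TPM without erythrocyte genes and 9.84% on TPM as deposited.

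**Figure D4:**
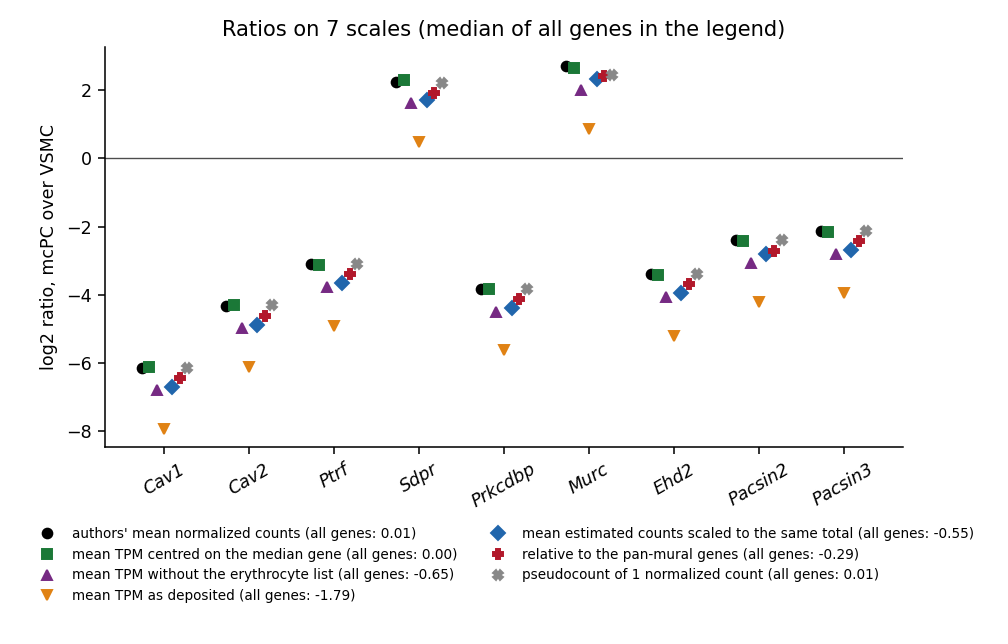
Log2 ratio, mcPC over VSMC, of each caveolae gene on normalized counts (black circles) and on 6 other scales, with the median of all genes on each scale in the legend. The 7 genes higher in VSMCs stay below -2 on every scale shown, and Sdpr and Murc stay above 0 but are at 0.49 and 0.86 on TPM as deposited (orange triangles).

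Proteins reported to lie in or to bind caveolae, such as channels, pumps, receptors and filamin, formed a list of 21 genes, all with a row. The list shares Kcnj8 and Abcc9 with the pericyte markers and Pdgfrb with the pan-mural genes, and it holds Nos3, the endothelial nitric oxide synthase. In all, 11 were at least 2-fold higher in VSMCs, 5 at least 2-fold higher in mcPCs and 5 within 2-fold, with a median log2 ratio of -1.05. Among all genes 13.9% and 22.0% were past 2-fold towards VSMCs and mcPCs, so the count towards mcPCs is near the background. On TPM as deposited the counts towards VSMCs and mcPCs were 16 and 2 of the 21, both near the shares of all genes there, 74.8% and 8.17%. The lowest were the subunits of the large-conductance calcium-activated potassium channel, Kcnmb1 with -6.73 and Kcnma1 with -6.43. Kcnma1 was at 19.0 TPM for VSMCs and 0.0599 TPM for mcPCs. The highest were the subunits of the vascular ATP-sensitive potassium channel, Abcc9 with 6.52 and Kcnj8 with 6.17, the same genes that served as pericyte markers above. In mcPCs the level of Kcnj8 was thus far above that of Cav1, and in VSMCs far below it.

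**Figure D5:**
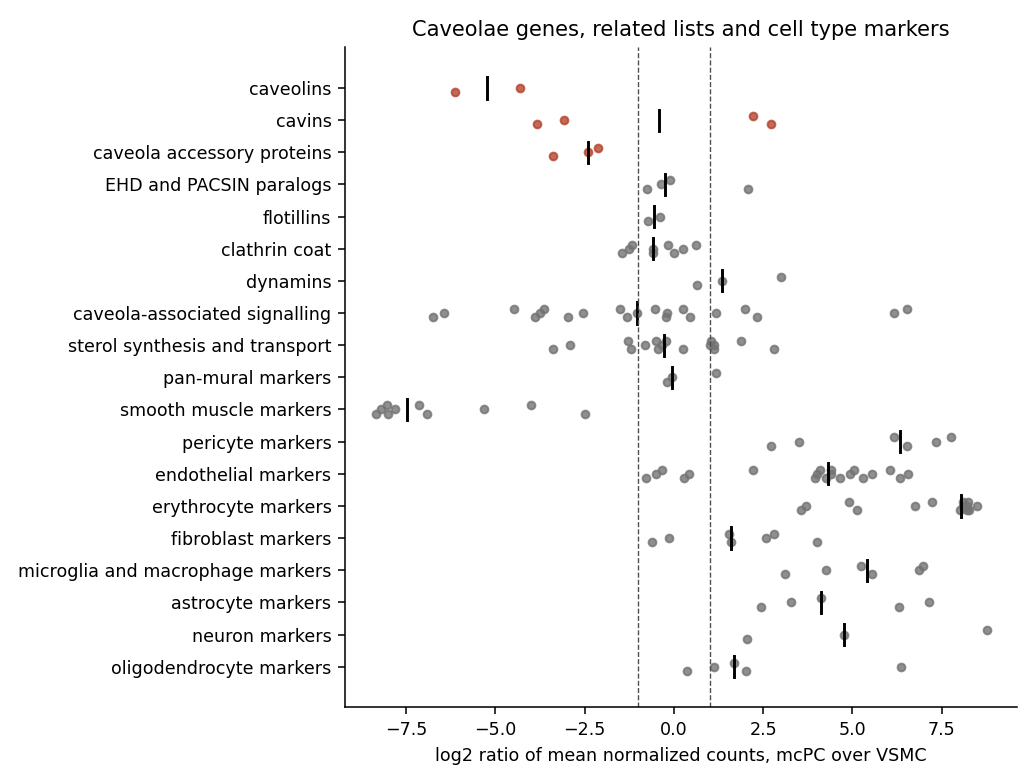
Log2 ratio of mean normalized counts, mcPC over VSMC, of each gene in the caveolae lists (red), related lists and cell type marker lists (grey), with a black bar at each list's median and dashed lines at the 2-fold limits. The caveolins lie at -6.14 and -4.32, on the side of the smooth muscle markers, whose median is -7.48, and the endothelial markers have a median of 4.33.

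The genes nearest to each of the main members were named by their distance in log2 mean normalized counts over the VSMC mean and the mcPC mean, which are only 2 points. Nearest to Cav1 were Kank1 (0.29), Col14a1 (0.69), Atp1b1 (0.76), Sdc4 (0.82) and Tusc5 (0.82). Nearest to Cav2 were Tfpi2 (0.18), Cd200 (0.19), Ccrl2 (0.26), Foxc2 (0.27) and Jph2 (0.27). Ptrf had Fosb (0.37), Dstn (0.39), Mrvi1 (0.44), Nr4a1 (0.51) and RGD1564664 (0.54) closest to it.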

How the data were processed

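RNA-Seq was carried out on 3 VSMC and 3 mcPC samples, and groups were taken from the sample titles. Reads were assigned by the authors with Salmon 0.8.0 to rat transcripts of Rnor_6.0, summed per gene with tximport and normalized with DESeq2. The deposited table holds the authors' mean TPM, their mean estimated counts, their mean effective lengths and their mean normalized counts, a signal obtained by dividing counts by normalization factors that include the lengths. All are means of a cell type. Its columns of log2 fold change, standard error, p-value and adjusted p-value are the authors' own comparison and were not used. The authors kept a gene where every sample held 1 read or more of it.

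Mean estimated counts deposited by the authors were taken as means per run, since 69.8% (VSMC) and 71.5% (mcPC) were whole multiples of a read over 12 runs, within 0.01 reads. Reads per sample are 4 times these values. Log2 ratios were taken of mean normalized counts without a pseudocount, with a 2-fold limit. Exact 95% Poisson and conditional binomial intervals cover counting error only, and counts were rounded for them. The edgeR test planned for counts per sample was not run, since no such counts were at hand. Of rows with 1 symbol, that with the most normalized counts was used. Genes named from other lists are the 2 highest and 2 lowest ratios of a list (all, in lists of up to 4), and the 5 genes nearest to Cav1, Cav2 and Ptrf. Some genes that this rule names are not reported here. A few others (Esam) were named after their values were seen, as were the promoters printed. The members and lists were chosen with earlier results of these data known. Promoters came from RefSeq (GRCr8), which matched 8 of 10 genes by symbol. Alternatives were 6 other scales, and filters at 0.8 TPM in VSMCs and at 100 normalized counts. The intervals were tested on simulated Poisson counts without a spread between samples, so that test covers counting error only. The work used scipy 1.17.1, pandas 2.3.3 and numpy 2.4.6 under Python 3.11.15, and matplotlib 3.10.9 for plots.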

Additional observations from a re-analysis of the deposited data

How the results depend on the processing

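Precision is limited by the absence of values per sample, so no sample could be left out in turn. The standard errors of the authors' own comparison were not used, and no spread between isolations enters here. No paired analysis was possible because the table gives 1 mean per cell type. Across the 9 genes and 6 other scales, 54 of 54 ratios kept their direction and 52 stayed past 2-fold, the exceptions being Sdpr and Murc on TPM as deposited, where 0 caveolae genes lay past 2-fold towards mcPCs in place of 2. Most of these scales shift the same means by a constant, so the 54 ratios are not separate checks. The number at least 2-fold higher in VSMCs was 7 on each scale, while the share of all genes there went from 13.9% to 74.8% on TPM as deposited. The median log2 ratio of all 9 genes, -3.09, became -3.12 on TPM centred on the median gene, -3.39 relative to the pan-mural genes, -3.65 on counts scaled to the same total, -3.77 on TPM without erythrocyte genes and -4.91 on TPM as deposited. Over the whole table, genes at least 2-fold higher in mcPCs numbered 1601 with the minimum of 0.8 TPM in VSMCs, which by its construction removes genes low in VSMCs, and 2062 with a minimum of 100 normalized counts, against 3210 without. Those higher in VSMCs numbered 1929 and 1708 under these minimums. Genes at least 2-fold higher in VSMCs numbered 4213 on counts scaled to the same total, against 2034.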

Other observations

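Genes of other coats and membrane domains had ratios closer to 0 than most caveolae genes on normalized counts. The flotillins, which mark membrane rafts without caveolae, had log2 ratios of -0.40 for Flot1 and -0.73 for Flot2, with 174 and 38.4 TPM for Flot1 in VSMCs and mcPCs. Of 9 genes of the clathrin coat and its adaptor, 3 were at least 2-fold higher in VSMCs and none in mcPCs, against 13.9% and 22.0% of all genes. Cltb had the lowest ratio with -1.45, followed by the heavy chain Cltc with -1.25, and the adaptor genes Ap2a2 and Ap2s1 the highest with 0.62 and 0.25. The dynamins, which cut vesicles from the membrane, had 3.01 for Dnm3, 1.36 for Dnm1 and 0.64 for Dnm2, the only one above 20 TPM in either cell type. Scaling turned the sign of some of these, and on TPM as deposited all 9 clathrin genes and both flotillins were at least 2-fold higher in VSMCs, as 74.8% of all genes were, Dnm1 had -0.43 and Dnm2 -1.16.

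Genes of sterol synthesis and transport, the supply of the cholesterol on which caveolae depend, were divided. Of 16 genes, 4 were at least 2-fold higher in VSMCs and 6 at least 2-fold higher in mcPCs, against 13.9% and 22.0% of all genes. The median log2 ratio was -0.28. The highest were Scarb1, a receptor for high-density lipoprotein, with 2.80 and Dhcr7 with 1.88. On TPM as deposited, 10 were at least 2-fold higher in VSMCs and 1 in mcPCs, where 74.8% and 8.17% of all genes were, and Npc1, Npc2, Abca1 and Srebf1, among the genes positive on normalized counts, were negative.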
